A study of Mus musculus with 2 samples.

Results

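The insulin-like growth factor (IGF) axis was followed through 10 genes in cells of the mouse knee. These were the ligand genes Igf1 and Igf2, the receptor genes Igf1r, Igf2r and Ghr, and the binding protein genes Igfbp3, Igfbp4, Igfbp5, Igfbp6 and Igfbp7. They are 10 of the 32245 genes in the tables and were chosen by name with earlier results of these data known, because Igf1 had one of the lowest mutant levels relative to control in cartilage cells. The levels of the members in the mutant and control libraries therefore selected the subject, and they are given below as a description. All 10 genes had values above 0 in the cartilage cells of both libraries.

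Single-cell 3′ RNA sequencing was carried out on knee joint cells of female mice aged 1 month. There was 1 library per genotype, each made from knees of 2 to 3 mice pooled together, and live cells without blood or endothelial surface markers were sorted. The control library was Stat3fl/fl, in which both Stat3 alleles are flanked by loxP sites and no Cre is carried. The mutant library was Acan-Cre+/Cre;Stat3fl/fl, which shares the floxed alleles and adds 1 allele of a Cre driven from the aggrecan gene Acan. According to the study's methods this Cre is tamoxifen-regulated and was induced in pups, so deletion was meant for cells that use Acan, chiefly chondrocytes. In these 2 libraries the effect of Cre itself cannot be told apart from that of Stat3 loss. The study reports that tamoxifen-treated mice with this Cre alone had no thinner growth plate zones, but no library of such mice is here. With 1 pool per genotype the spread between mice was not measured. No difference below has a test or a replicate check, and shares of cells carry exact 95% binomial intervals (Clopper-Pearson), which cover counting error only.

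IGF1 and IGF2 are secreted growth factors that act through the receptor tyrosine kinase encoded by Igf1r, while the receptor encoded by Igf2r takes up and degrades IGF2. Growth hormone acts through the receptor encoded by Ghr and raises Igf1 expression in liver and in many other tissues, and mice that lack Igf1 or its receptor grow poorly. Most extracellular IGF is held by binding proteins, which can carry, sequester or release it, and proteases such as the one encoded by Pappa cut some of them.

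Estimated UMIs (unique molecular identifiers, 1 per captured transcript) had a median of 4344 per cell over the 4903 control cells and of 3743 over the 1340 mutant cells. Cells with a value above 0 for a globin gene (Hba-a1, Hba-a2, Hbb-bs or Hbb-bt) made up 75.7% of the control and 8.43% of the mutant library, and cells above 5% mitochondrial counts 14.2% and 36.7%. Only 2 cell barcodes occurred in both libraries. Levels are given as CPM, the estimated UMIs of a gene summed over the chosen cells per 1000000 of all their UMIs. Differences are log2 ratios of mutant over control with 1 CPM added to each, and a change of 2-fold is 1 on that scale. The targeted gene Stat3 was at 143 CPM in control and 104 CPM in mutant Sox9+Col2a1+ cells (log2 ratio -0.46). Over all cells it was at 68.9 and 120 CPM, but the libraries differ in their share of globin-positive cells, so this pair does not compare like cells. Which exons are deleted is not given in the sources used here, and 3′ tags that lie outside them would not report the deletion.

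Cells were placed in a class when both of its marker genes were above 0. Cartilage cells were those with Sox9, the transcription factor of cartilage, and Col2a1, the main cartilage collagen, and numbered 1013 in control and 335 in mutant. The other gates with at least 20 cells in both libraries were Bglap with Ibsp for osteoblasts (126 and 90 cells), Adipoq with Lepr for marrow stromal cells (90 and 49), Tnmd with Scx for tenocytes (109 and 23) and Rgs5 with Notch3 for mural cells (46 and 35). Synovial lining cells (177 and 51) had at least 2 UMIs of Prg4, a value for Cd55 and no Sox9. Fibroblasts, gated on Pi16 and Dpp4 (44 and 12 cells), were used in the control library alone. All further markers of the panel were above 0 in at least 10% of the cells of these gates and 2-fold above the other cells, except 1 of 5 in the mutant mural gate. In the tenocyte gates 1 of the 10 leading genes was a muscle progenitor marker (Chodl), and the leading genes of the mutant Sox9+Col2a1+ cells included Krt16 and Plet1 beside Matn3 and Snorc. Macrophage and neutrophil gates were empty.

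Igf1 was the member with the lowest mutant level relative to control in Sox9+Col2a1+ cells. It stood at 481 CPM in the control (2603 estimated UMIs in 1013 cells) and at 65.7 CPM in the mutant library (202 UMIs in 335 cells), a log2 ratio of -2.85 or 7.23-fold lower. Over the 6983 genes that reached 10 CPM in both libraries of this gate the median log2 ratio was -0.18, and Igf1 lay at -2.67 from it. Igf1 was above 0 in 358 control cells (35.3%, 32.4 to 38.4) and in 54 mutant cells (16.1%, 12.3 to 20.5). The mutant share was lower by 19.2 percentage points (mutant minus control -19.2, Newcombe 95% interval -23.9 to -14.0). The mutant cells of this gate held more UMIs per cell (median 8521 against 4975). At a common 2000 UMIs per cell, with 96 control and 33 mutant cells too shallow to enter, 26.3% (23.5 to 29.3) of control and 9.93% (6.80 to 13.9) of mutant cells had Igf1. As a background, 404 control cells were taken that had at least 2 UMIs of Alas2, an enzyme of heme synthesis in red cell precursors, values for Hba-a1 and Hbb-bs, and none of the gates above. They should lack Igf1 transcripts, and the share was 0.99% (0.27 to 2.52) with a median of 5537 UMIs per cell, and 0.76% after thinning. The control share lay above this background. Only 2 mutant cells met the same rule, so no background was measured for the mutant library.

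The gap was widest among cells rich in Igf1. Cells with more than 10 Igf1 UMIs were 84 of the control Sox9+Col2a1+ cells (8.29%, 6.67 to 10.2) and held 68.8% of the library's Igf1 UMIs in that gate. In the mutant library they were 4 cells (1.19%, 0.326 to 3.03), with 33.6% of the UMIs. At the low end, cells with 1 Igf1 UMI were 10.4% (8.56 to 12.4) of control and 6.87% (4.40 to 10.1) of mutant cells, and these intervals overlapped. The 3 cells with the most Igf1 held 6.84% of the control and 28.2% of the mutant UMIs, and without them the levels were 450 and 47.4 CPM (-3.22).

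**Figure D1:**
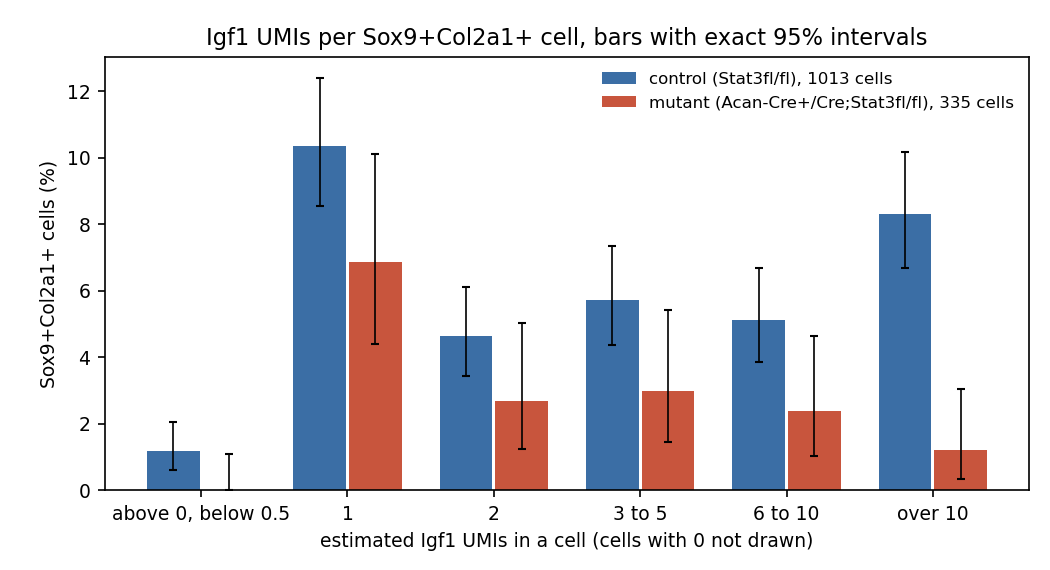
Share of Sox9+Col2a1+ cells (y axis, percent) by the estimated number of Igf1 UMIs in the cell (x axis), for the control (blue, 1013 cells) and the mutant library (red, 335 cells). Whiskers are exact 95% intervals for counting error, and cells with no Igf1 UMI (64.7% and 83.9%) are not drawn. The libraries lie farthest apart above 10 UMIs, at 8.29% and 1.19%.

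The 4 mutant cells with more than 10 Igf1 UMIs differed from the 84 control ones in their cartilage genes. The 84 control cells had Col2a1 at 36922 CPM and Acan, the gene of the main cartilage proteoglycan, at 4067 CPM, close to the 42026 and 4405 CPM of control cells with less than 0.5 Igf1 UMI. Ucma, a growth plate and cartilage matrix gene, reached at least 2 UMIs in 70.2% of them and Prg4, the gene of the joint lubricant lubricin, in 5.95%, and 5 of the 84 also passed another gate. The 4 mutant cells had Col2a1 at 148 CPM and Acan at 70.5 CPM, none reached 2 UMIs of Ucma or Prg4, and 1 also passed another gate. Igfbp5 was at 2399 CPM in these 4 cells and at 84.9 CPM in mutant cells with less than 0.5 Igf1 UMI. The 50 mutant cells with 1 to 10 Igf1 UMIs had Col2a1 at 24739 CPM and Acan at 1517 CPM, and 60% reached 2 UMIs of Ucma. Mutant cells with less than 0.5 Igf1 UMI were near these values, at 33061 CPM, 1741 CPM and 67.3%. Where at least 2 UMIs of both Sox9 and Col2a1 were required, Igf1 was at 486 CPM in 729 control and at 28.6 CPM in 229 mutant cells, a log2 ratio of -4.04.

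Globin-positive cells made up 50.5% of the control and 0.896% of the mutant Sox9+Col2a1+ cells. Without them, 501 control and 332 mutant cells remained, which are the cells marked by the study's authors. Igf1 was at 491 and 65.9 CPM there (-2.88), so the difference was as large without the globin-positive cells. Cells above 5% mitochondrial counts were 7.40% of control and 20.9% of mutant Sox9+Col2a1+ cells, and within the study's limits on mitochondrial and total counts the log2 ratio of Igf1 was again -2.88. Of the marker panels of other classes, the 8 osteoblast markers summed to 1252 CPM in control and 4421 CPM in mutant Sox9+Col2a1+ cells, the 7 marrow stromal markers to 252 and 500 CPM, and the 6 tenocyte markers to 2623 and 1577 CPM. Their part in the Igf1 difference was not tested. In the 956 control and 300 mutant cells that passed no other gate Igf1 was at 483 and 53.4 CPM (-3.15).

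Igf1 was not spread evenly over the cartilage cells of either library. These were divided by Ucma and by Prg4, which is made by cells of the joint surface, each counted as present at 2 UMIs or more. In cells with Ucma alone, 556 and 159 cells, Igf1 was at 503 CPM in control and 26.3 CPM in mutant (-4.21, 18.5-fold lower). In cells with both genes, 77 and 60 cells, it was at 241 and 15.0 CPM (-3.92), although the mutant value rests on 8.65 UMIs. In cells with Prg4 alone, 153 and 34 cells, the levels were 188 and 148 CPM (-0.35), with 69.8% of the mutant UMIs in 3 cells. Cells with neither gene, 227 and 82 cells, had the highest Igf1 level of the 4 divisions in both libraries, at 677 and 262 CPM (-1.37). Without globin-positive cells this held for the mutant library alone, since control cells had 534 CPM with Ucma alone and 525 CPM with neither gene. In control cells with both of the cell cycle genes Mki67 and Top2a, Igf1 was at 185 CPM in 88 cells, and in those with Ihh, the hedgehog ligand of prehypertrophic chondrocytes, at 139 CPM in 24 cells. The mutant library had only 5 and 9 such cells with Igf1 at 0, for which the exact intervals reach up to 52.2% and 33.6% of cells with an Igf1 UMI.

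**Figure D2:**
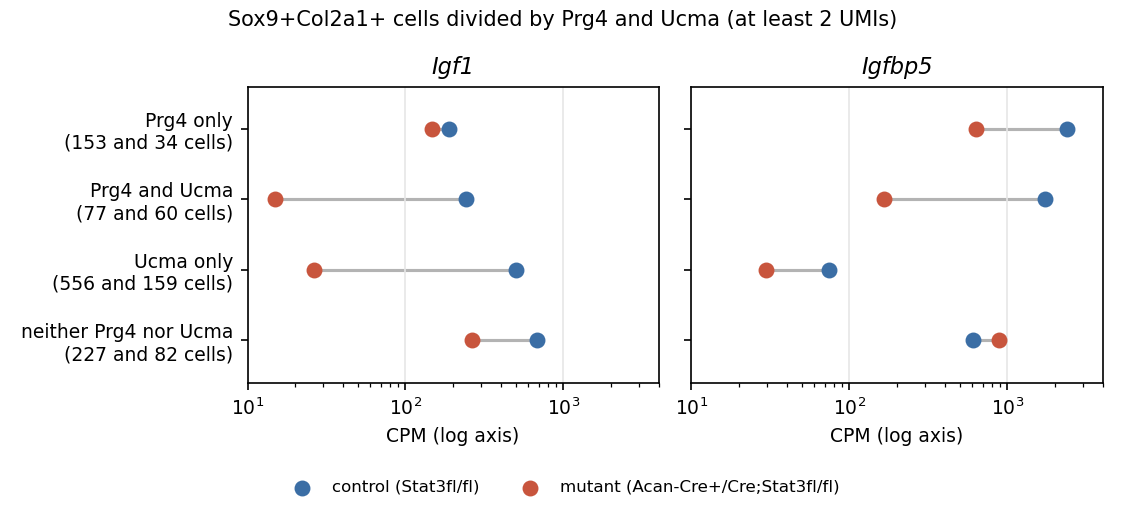
Igf1 (left) and Igfbp5 (right) in Sox9+Col2a1+ cells divided by Prg4 and Ucma, each present at 2 UMIs or more. Points are CPM of summed estimated UMIs on a log axis, blue for control and red for mutant, with the numbers of control and mutant cells beside each row. Igf1 lies far apart in both rows with Ucma and close together in the row with Prg4 alone. Igfbp5 is lower in the mutant library in every row with Prg4 or Ucma, most where both are present, and higher where neither is present.

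Across the gated classes of the control library, Igf1 was highest in connective tissue cells, above its level in cartilage. It stood at 1017 CPM in tenocytes, the cells of tendon, 875 CPM in fibroblasts and 865 CPM in marrow stromal cells. Sox9+Col2a1+ cells followed at 481 CPM, then mural cells, which wrap small vessels, at 222 CPM, osteoblasts at 119 CPM and synovial lining cells at 110 CPM. The share of cells with an Igf1 value above 0 was 76.1% (67.0 to 83.8) in tenocytes, 72.7% (57.2 to 85.0) in fibroblasts and 80.0% (70.2 to 87.7) in marrow stromal cells, and these intervals overlapped. They did not overlap the 35.3% of Sox9+Col2a1+ cells, whose interval in turn overlapped that of the mural cells (23.9%, 12.6 to 38.8). Synovial lining cells (15.3%, 10.3 to 21.4) and osteoblasts (15.1%, 9.33 to 22.5) had like shares.

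In the mutant library the order was tenocytes at 889 CPM, marrow stromal cells at 510 CPM, synovial lining cells at 148 CPM, mural cells at 70.1 CPM, Sox9+Col2a1+ cells at 65.7 CPM and osteoblasts at 41.1 CPM. Igf1-positive shares were 73.9% (51.6 to 89.8) in tenocytes and 81.6% (68.0 to 91.2) in marrow stromal cells. At 2000 UMIs per cell they were 65.4% in control and 65% in mutant tenocytes, and 78.6% (67.1 to 87.5) and 63.0% (47.5 to 76.8) in marrow stromal cells. Cartilage cells stood above the mural, osteoblast and synovial lining gates in control and below the synovial lining gate in the mutant library. In that mutant synovial gate 3 cells held 63.2% of the Igf1 UMIs. Without the 3 richest cells it was at 57.0 CPM, beside 47.4 CPM in cartilage. The mutant positive shares overlapped, at 23.5% (12.8 to 37.5) and 16.1% (12.3 to 20.5). The mutant mural level rests on 12.0 UMIs and did not fix its place against cartilage, since without the 3 richest cells mural cells were at 13.1 and Sox9+Col2a1+ cells at 47.4 CPM. With 1 library per genotype this order has no spread between samples.

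**Figure D3:**
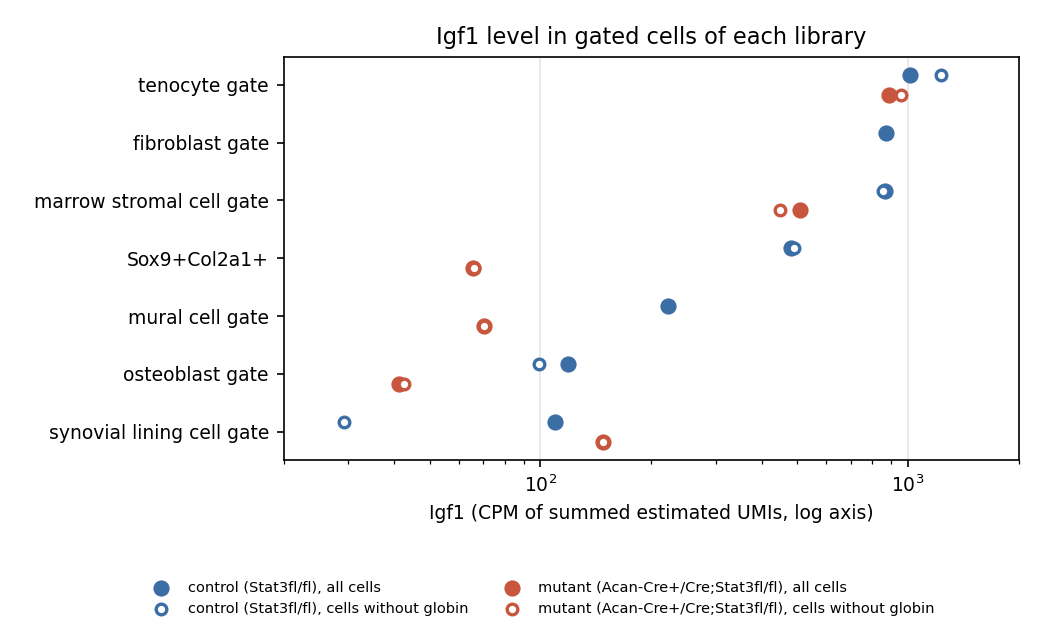
Igf1 level (x axis, CPM, log scale) in each gated class with at least 20 cells, for control (blue) and mutant (red). Filled points use all cells of the gate and open points the cells without a globin value, where at least 20 remain. In Sox9+Col2a1+ cells the libraries stand at 481 and 65.7 CPM, in tenocytes at 1017 and 889 CPM, and the control point of the synovial lining gate moves from 110 to 29.3 CPM without globin-positive cells.

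The mutant and control levels of Igf1 outside cartilage differed less, or rested on few UMIs. In tenocytes the log2 ratio was -0.19 (504 and 122 UMIs) and in marrow stromal cells -0.76 (248 and 157 UMIs). In osteoblasts it was -1.51, from 70.1 and 26.5 UMIs, and 3 cells held 75.5% of the mutant UMIs. With cells weighted equally it was -0.76, no longer 2-fold, and at 2000 UMIs per cell the levels were 106 and 125 CPM, the opposite direction. In mural cells it was -1.65, from 25.9 and 12.0 UMIs. Synovial lining cells were the only gate of the 6 with a higher mutant level, 148 against 110 CPM (0.43), and without the 3 cells richest in Igf1 the log2 ratio there was 0.00061. Without globin-positive cells the control level of the synovial gate was 29.3 CPM and the log2 ratio 2.30, so the value depends on the 60.5% of control cells that held a globin value. The shares of positive synovial cells, 15.3% and 23.5% (12.8 to 37.5), overlapped. Genes lower by 2-fold or more in the mutant library were 17.8% of those with at least 10 CPM in either library in osteoblasts, 20.2% in marrow stromal cells, 12.4% in synovial lining cells, 24.0% in tenocytes and 23.4% in mural cells. Genes higher by as much were 6.77%, 11.5%, 9.27%, 14.5% and 19.2%, in that order. By the same rule 4 of 9 members were lower in osteoblasts and none was higher, 2 of 10 were lower and 1 was higher in marrow stromal cells, and 1 of 9 was lower and 1 higher in synovial lining cells. Without globin-positive cells 3 were lower and none higher in marrow stromal cells (20.6% and 20% of all genes). In synovial lining cells 2 were lower and 4 higher without them (11.6% and 13.7%). Of these 4, Igf2 rests on 0.961 control and 7.65 mutant UMIs, and Igf1 on 11.3 control UMIs, 84.3% of them in 3 cells. In tenocytes none of 10 was lower and 4 were higher. In mural cells 3 of 9 were lower and 2 higher. Igfbp3 among the lower ones rests on fewer than 3 UMIs in each library, and Igf2 among the higher ones was at 7.87 CPM in control.

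In Sox9+Col2a1+ cells, where 9 members had at least 10 CPM in either library, 2 were lower by 2-fold or more in the mutant library (Igf1 and Igfbp5) and none was higher. Among all 8272 genes at that level, 7.71% were lower and 3.68% higher by 2-fold or more, and without globin-positive cells 6.63% and 4.57% of 8117 genes. The rule used this contrast, so nothing is read from the comparison. Igfbp3, at 3.31 and 9.34 CPM, stayed under 10 CPM in both libraries. The median log2 ratio of the 10 genes was -0.25, beside -0.18 for the 6983 genes above.

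**Figure D4:**
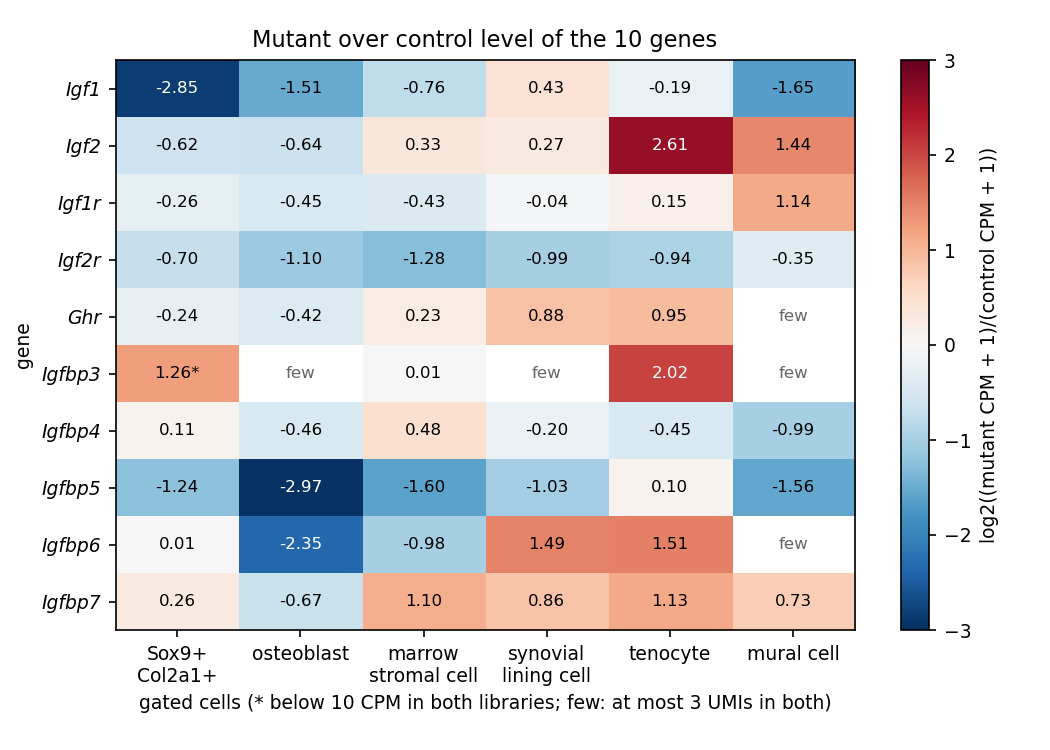
Log2 ratio of mutant over control CPM (1 CPM added to each) for the 10 genes (rows) in 6 gated classes (columns), printed in each cell and coloured from blue (lower in mutant) to red (higher). An asterisk marks a gene below 10 CPM in both libraries, and "few" a gene with at most 3 estimated UMIs in both. Igf2r is blue in all 6 columns, Igfbp5 in 5 and Igf1 in 5.

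Igf2, the second ligand and an imprinted gene with high use before birth, was closer between the libraries. It stood at 359 CPM in control and 234 CPM in mutant Sox9+Col2a1+ cells (-0.62), above 0 in 50.6% (47.5 to 53.8) and 43.6% (38.2 to 49.1) of cells. The Igf1 share of the summed ligand CPM was 57.2% in control and 21.9% in mutant, so Igf2 was the more abundant ligand transcript in the mutant cartilage cells. Levels of different genes are set side by side here as CPM because 3′ libraries count 1 tag per transcript whatever its length. Differences in capture between genes were not measured. Igf2 overlaps Gm49394 and Mir483 on its own strand, and how tags there were assigned was not checked. In every other compared gate Igf1 was the larger of the pair in both libraries, with 57.8% to 96.6% of the ligand CPM. Among cartilage cells with neither Ucma nor Prg4, Igf2 was at 347 and 91.7 CPM (-1.91). Tenocytes had Igf2 at 84.6 CPM in control and 523 CPM in mutant (2.61), and 3 of the 23 mutant cells held 66.8% of those UMIs.

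Both ligands were often found in the same cells. Of the control Sox9+Col2a1+ cells with Igf1, 61.7% also had Igf2, against 44.6% of those without, and in the mutant library the shares were 50% and 42.3%. Igf1r was present in 44.4% of control cells with Igf1 and 39.1% of those without, and in 53.7% and 43.4% of mutant cells. The cells with Igf1 were little deeper than the others, at medians of 5135 and 4893 UMIs in control and 8686 and 8493 in mutant. Larger gaps belonged to Igfbp4, present in 59.3% of mutant cells with Igf1 and 20.3% of those without, and 39.9% and 22.4% in control.

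Of the receptors, Igf1r differed little in cartilage. It was at 116 CPM in control and 96.5 CPM in mutant Sox9+Col2a1+ cells (-0.26), near the median of all genes, and above 0 in 41.0% (37.9 to 44.1) and 45.1% (39.7 to 50.6) of cells. At 2000 UMIs per cell the shares were in the opposite order, 19.2% and 14.2%, with overlapping intervals. Its level there was the highest of the 6 gates in the control library, and the others lay between 45.6 CPM in tenocytes and 56.9 CPM in marrow stromal cells. The control fibroblasts, which are not among these 6 gates, were close to cartilage at 114.5 CPM. At 2000 UMIs per cell the fibroblasts were at 155 CPM and the control cartilage cells at 114 CPM. In mural cells Igf1r was at 49.9 and 111 CPM (1.14), from 5.8 and 19 UMIs.

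Igf2r was lower in the mutant library in 6 of 6 gates. These gates come from the same 2 libraries. The median log2 ratio of all genes was also below 0 in each, between -0.19 in osteoblasts and -0.05 in synovial lining cells. How many genes were lower in all 6 was not counted. Cartilage cells had 207 CPM in control and 127 CPM in mutant (-0.70). In osteoblasts it was at 100.2 and 46.3 CPM (-1.10), in marrow stromal cells at 135 and 55.0 CPM (-1.28) and in synovial lining cells at 104 and 52.0 CPM (-0.99). Tenocytes had 112 and 58.1 CPM (-0.94) and mural cells 194 and 152 CPM (-0.35). The share of Sox9+Col2a1+ cells above 0 was 58.7% (55.6 to 61.8) and 54.0% (48.5 to 59.5), and after thinning to 2000 UMIs 31.0% and 21.9%. The gene is transcribed against Airn, a long noncoding RNA that starts within it on the opposite strand, and Airn was at 41.6 and 37.6 CPM in the same cartilage cells (-0.14).

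Ghr, the growth hormone receptor, was low in cartilage at 31.0 and 26.2 CPM (-0.24), above 0 in 14.4% (12.3 to 16.7) and 18.8% (14.8 to 23.4) of Sox9+Col2a1+ cells. These shares, too, changed order at 2000 UMIs per cell, to 6.54% (5.03 to 8.34) and 4.97% (2.81 to 8.06). Marrow stromal cells had the highest level of the compared gates in both libraries, 339 and 396 CPM (0.23), with Ghr in 58.9% (48.0 to 69.2) and 67.3% (52.5 to 80.1) of cells, and in 50% of both after thinning. Tenocytes (52.2 and 102 CPM) and synovial lining cells (31.6 and 59.0 CPM) had higher mutant levels by less than 2-fold, at log2 ratios of 0.95 and 0.88. Without globin-positive cells the tenocyte value passed 2-fold, at 43.2 and 110 CPM (1.33). Mural cells were near the detection limit, with 0.988 and 1.99 UMIs in all.

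Among the binding proteins Igfbp5, which binds both the growth factors and extracellular matrix, differed most often. Sox9+Col2a1+ cells had 517 CPM in control and 218 CPM in mutant (-1.24), with a value above 0 in 30.7% (27.9 to 33.6) and 19.7% (15.6 to 24.4) of cells. With thinning these shares were 22.0% (19.4 to 24.9) and 13.6% (9.92 to 18.0), still apart. Without globin-positive cells they were 25.7% (22.0 to 29.8) and 19.6% (15.4 to 24.3), which overlapped. In those cells, values of at least 0.5 UMI were found in 20.4% and 19.6%. The gap in shares therefore depends on the globin-positive cells. Igfbp5 was at 441 and 55.7 CPM in osteoblasts (-2.97), at 7320 and 2410 CPM in marrow stromal cells (-1.60), at 4854 and 2371 CPM in synovial lining cells (-1.03) and at 758 and 256 CPM in mural cells (-1.56). The osteoblast value rests on 261 and 35.8 UMIs, with 42.7% and 61.0% of them in 3 cells. With cells weighted equally the osteoblast levels were 534 and 206 CPM, and without the 3 richest cells the log2 ratio was -3.52. Igfbp5 was thus lower by 2-fold or more in 5 of 6 gates. The cartilage value fell short of 2-fold without the top 5% of cells by counts (-0.79) and with thinning (-0.92), and the synovial value did so relative to the median of all genes in its gate (-0.98). Tenocytes were the exception with 1189 and 1275 CPM (0.10), where 3 cells held 76.0% of the mutant UMIs, and without the 3 richest cells of each library the log2 ratio was -1.17. The positive share of marrow stromal cells was 95.6% (89.0 to 98.8) in control and 67.3% (52.5 to 80.1) in mutant. Without globin-positive cells, the log2 ratio was -1.05 in cartilage, -2.63 in osteoblasts, -1.76 in marrow stromal cells, -1.12 in synovial lining cells and -0.42 in tenocytes.

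Within control cartilage Igfbp5 was highest in cells with Prg4, while in the mutant library it was highest in cells with neither Prg4 nor Ucma. Control cells with Prg4 alone had 2386 CPM and those with both genes 1728 CPM, against 74.1 CPM in cells with Ucma alone. The mutant levels were 634 CPM (-1.91), 165 CPM (-3.38) and 29.7 CPM (-1.29). Cells with neither gene had 602 and 890 CPM (0.56), and the 21 control and 27 mutant cartilage cells that also passed the osteoblast gate 992 and 1032 CPM (0.06). Among the 4 divisions the difference in Igfbp5 was largest where Prg4 and Ucma were both present, and the mutant value there was 10.4-fold lower.

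Igfbp7, which binds IGFs weakly and is found around vessels, was the most abundant binding protein transcript of cartilage. It was at 855 CPM in control and 1024 CPM in mutant Sox9+Col2a1+ cells (0.26), above 0 in 83.7% (81.3 to 85.9) and 79.1% (74.4 to 83.3) of cells. Mural cells had the highest level, 3273 and 5441 CPM (0.73), with Igfbp7 in 97.8% and 100% of cells. It was higher in the mutant library in 5 of 6 gates, by 2-fold or more in marrow stromal cells (901 and 1934 CPM, 1.10) and tenocytes (1306 and 2856 CPM, 1.13), where 3 cells held 46.2% of the mutant UMIs. Without globin-positive cells these values were 0.90 and 0.92, under 2-fold, and the synovial lining gate was at 1.25. Osteoblasts were the exception at 147 and 92.4 CPM (-0.67).

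Igfbp6, which prefers IGF2, had about equal levels in cartilage, 104 and 105 CPM (0.01). It was a transcript of fibroblasts, at 3345 CPM in 100% (92.0 to 100) of the 44 control cells, and of tenocytes. In tenocytes it was at 1161 and 3310 CPM (1.51), and in synovial lining cells at 409 and 1151 CPM (1.49), where the positive share was 50.8% (43.2 to 58.4) in control and 86.3% (73.7 to 94.3) in mutant cells. The mutant synovial cells held more UMIs (median 7339 against 4531), and at 2000 UMIs per cell the shares were 35.9% (28.7 to 43.7) and 53.2% (38.1 to 67.9), which overlapped. The 3 richest cells held 53.3% of the mutant UMIs in tenocytes and 45.7% in synovial lining cells. Osteoblasts had 63.5 and 11.6 CPM (-2.35), from 37.5 and 7.49 UMIs.

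Igfbp4, a substrate of the protease encoded by Pappa, marked the marrow stromal cells, which had 4088 CPM in control and 5697 CPM in mutant (0.48) with a value above 0 in 98.9% and 95.9% of cells. Cartilage cells had 114 and 122 CPM (0.11), and the direction depended on which cells were counted. Cells of no other gate had 95.6 and 56.3 CPM (-0.75), and cells with neither Prg4 nor Ucma 221 and 596 CPM (1.42). Igfbp3, the main carrier of circulating IGF, was sparse in the joint. Marrow stromal cells had the highest level at 99.9 and 101 CPM (0.01), in 23.3% and 22.4% of cells. Tenocytes had 13.6 and 58.2 CPM (2.02) from 6.75 and 7.98 UMIs, which are too few to rank.

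The make-up of the binding protein transcripts differed between the libraries, and in some gates their sum did as well. In Sox9+Col2a1+ cells the 5 genes summed to 1593 CPM in control and 1479 CPM in mutant, while Igfbp5 made up 32.5% and 14.7% of the sum and Igfbp7 53.7% and 69.2%. In marrow stromal cells the sums were 12468 and 10171 CPM, and the leading gene was Igfbp5 in control (58.7%) and Igfbp4 in mutant (56.0%). Osteoblasts had sums of 816 and 279 CPM and the same pair of leaders, Igfbp5 at 54.1% in control and Igfbp4 at 41.1% in mutant. With cells weighted equally, Igfbp4 (178 and 446 CPM) and Igfbp7 (179 and 252 CPM) were higher in mutant osteoblasts. Igfbp5 (534 and 206 CPM) and Igfbp6 (66.4 and 29.7 CPM) were lower, so the gap in the osteoblast sum depends on the weighting. Synovial lining cells were led by Igfbp5 in both, at 80.0% and 51.2%, with Igfbp6 at 6.74% and 24.8%. Tenocyte sums were 4156 and 7855 CPM, led by Igfbp7 in control (31.4%) and Igfbp6 in mutant (42.1%). Mural cells were led by Igfbp7 in both, at 71.4% and 91.2%.

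**Figure D5:**
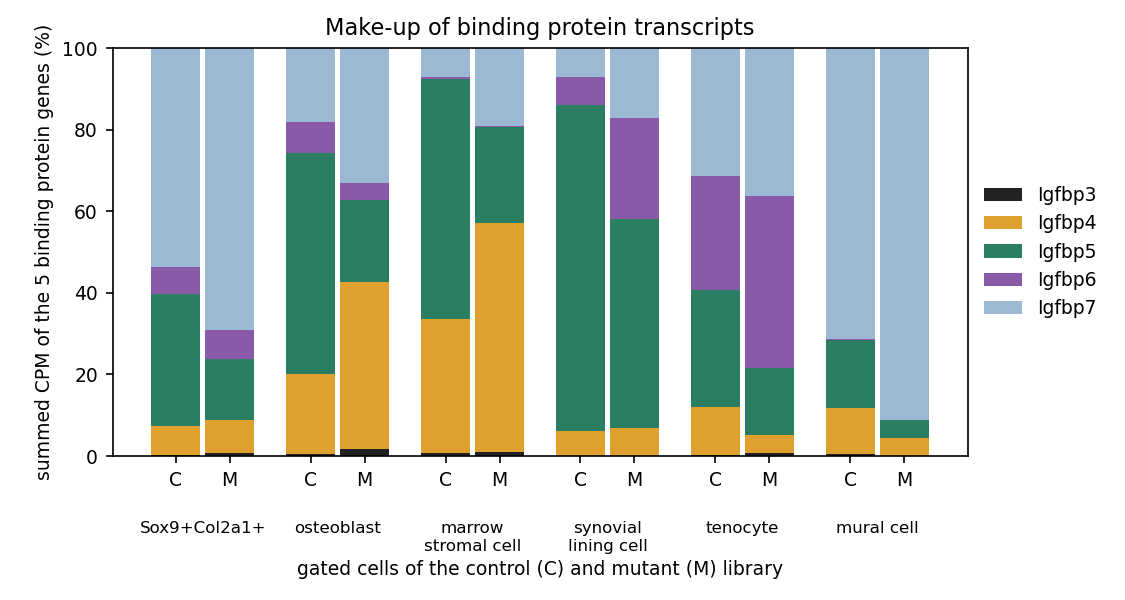
Make-up of the binding protein transcripts in 6 gated classes, as the percent of the summed CPM of Igfbp3, Igfbp4, Igfbp5, Igfbp6 and Igfbp7 (y axis), in the control (C) and mutant (M) library. The Igfbp5 band is narrower in the mutant bar of every pair, for example 32.5% and 14.7% in Sox9+Col2a1+ cells.

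In these gates, too, depth and cell state differed between the libraries. Control cells held a globin value in 50.8% to 71.7% of the cells of the 5 other compared gates and mutant cells in 0% to 4.35%. Cells above 5% mitochondrial counts were 2.22% to 23.9% in control and 11.8% to 51.4% in mutant. Their part in the values above was not tested, beyond the levels given without globin-positive cells.

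Further genes of the pathway were taken from a list of 37, of which 26 had at least 10 CPM in either library of Sox9+Col2a1+ cells. In the mutant library 4 were lower by 2-fold or more and none higher, beside 7.71% lower and 3.68% higher among all 8272 genes. Of the 26, 22 lay below and 4 above the control level, where 64.9% of all genes lay below, and the median log2 ratio was -0.33, beside -0.18 over the 6983 genes of the gate. Grb10, an imprinted adaptor that dampens signalling from the insulin and IGF1 receptors, was at 445 and 191 CPM (-1.22). Pik3r1, the regulatory subunit of the kinase PI3K, was at 98.7 and 44.3 CPM (-1.14). Stat5a, which acts downstream of the growth hormone receptor, was at 15.7 and 6.13 CPM (-1.23). H19, an imprinted noncoding RNA beside Igf2, was at 1005 and 458 CPM (-1.13). The 4 genes above the control level, all by less than 2-fold, were Foxo1, Pappa, Akt1 and Pik3ca, with Foxo1, a transcription factor that insulin and IGF signalling keeps out of the nucleus, at 174 and 257 CPM (0.56). Without globin-positive cells 25 genes were counted and again 4 were lower and none higher, with Grb10 at -1.41.

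The genes whose level over the gated classes was most like that of Igf1 were sought among 8775 genes, by Pearson's r of log2(CPM + 1) over 13 points, 1 for each class and library with at least 20 cells. These points come from only 2 libraries and share their depth and processing, and 7 classes underlie them, so r is a description. The 5 highest were Spaca6 (0.896), Lrp6 (0.884), Nfia (0.869), Lnpep (0.864) and Enc1 (0.864). Of these Lrp6, a coreceptor for Wnt ligands, was at 99.0 and 60.5 CPM in Sox9+Col2a1+ cells and Enc1 at 24.7 and 18.1 CPM, a smaller gap than that of Igf1.

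The members lie apart in the genome, with coordinates here from Gencode M21 on GRCm38. Igf1 (ENSMUSG00000020053) spans chr10:87858265-87937042 on the plus strand and overlaps the antisense gene Igf1os, which was at 0.37 and 0 CPM in Sox9+Col2a1+ cells. Igf2 (ENSMUSG00000048583) spans chr7:142650766-142666816 and Igf1r (ENSMUSG00000005533) chr7:67952827-68233668, on the minus and plus strand of the same chromosome. Igfbp5 (ENSMUSG00000026185), at chr1:72857932-72874884 on the minus strand, lies 5457 bases from Igfbp2, which was at 0.18 and 0.65 CPM, and Igfbp3 lies 3539 bases from Igfbp1, which was at 0 CPM in both. The low level of these neighbours contrasted with 517 and 218 CPM for Igfbp5. The letters TTCNNNGAA, the core that STAT proteins are known to bind and the same on both strands, were found in 0 of 14 RefSeq windows (GRCm38.p6, 250 bases before to 50 after a gene's start) of the members, against 2726 of all 32851 windows (8.30%). This says only that the letters are not in these windows, and the window of Igf1 lies inside a 5′ UTR exon of the Gencode models rather than at a Gencode start.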

How the data were processed

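Knee joint cells of 1 control and 1 mutant library were analysed (10x 3′ v3.1). Per the labels and the study's methods, the authors processed reads in Partek, with STAR 2.7.3a alignment to mm10, removal of duplicate UMIs, counting on Gencode M25 and ambient RNA removal with SoupX. SoupX subtracts estimated free RNA, which lowers weak signals such as globin or Igf1 in cells that do not make them. The gene values deposited by the authors are log2(CPM + 1) per cell. The deposited total per cell is an estimated count, not whole after ambient removal. The mitochondrial share was deposited as a percent, and the number of expressed genes as a score per cell. A text column marks cells the authors selected. Which step of their processing the tables come from is not given in the sources used here, and cells above their 5% mitochondrial limit are present.

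Estimated UMIs were recovered per cell by undoing the logarithm and multiplying the CPM by the total of the cell over 1000000. Among values that were not 0, 74.9% (control) and 97.3% (mutant) lay within 0.1 of a whole number, so no count model and no Poisson interval was used, and the UMIs behind weak values are printed. UMIs were summed per gate and library, scaled to CPM and compared as log2((mutant CPM + 1)/(control CPM + 1)). A ratio needed 20 cells in both libraries. Counts of members used a minimum of 10 CPM in either library and a 2-fold limit. Cells passing several gates (94 and 47) were kept in the Sox9+Col2a1+ cells if they passed that gate, and were left out of all other gates. No gate was passed by 2530 and 727 cells. These numbers include 1 further gate that is not reported here and is left out of the search for genes most like Igf1. "At least 2 UMIs" means 1.5 or more before rounding. Doublets were not called. Thinning used seed 1. The genes, gates, pathway list and the rule for named genes (all 10 members, the pathway genes at 2-fold or more, and the 5 genes most like Igf1) were chosen with earlier results of these data known, and the background cells for Igf1, the divisions by Prg4, Ucma and other genes, as well as further genes named, after values were seen. Calculations were tested on simulated data and run in Python 3.11.15 with NumPy 2.4.6, pandas 2.3.3 and SciPy 1.17.1. Alternatives covered globin-positive cells, scaling, pseudocount, weighting, gate definition, cell limits, the richest cells and depth.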

Additional observations from a re-analysis of the deposited data

Results flagged for a closer look

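With 1 library per genotype, opposite directions between gated classes were the only kind of result that could be picked out for a closer look, and none of these differences between classes was tested. For 9 members the mutant level was lower than control in one class and higher in another, and for the 6 given here at least 1 of these differences reached 2-fold, leaving out values with at most 3 UMIs or under 10 CPM in both libraries. Igf1 had its lowest log2 ratio in Sox9+Col2a1+ cells (-2.85) and its highest in synovial lining cells (0.43). Igf2 ranged from -0.64 in osteoblasts to 2.61 in tenocytes. Igf1r ranged from -0.45 in osteoblasts to 1.14 in mural cells, where the UMIs are few. Igfbp5 ranged from -2.97 in osteoblasts to 0.10 in tenocytes, Igfbp6 from -2.35 to 1.51 and Igfbp7 from -0.67 to 1.13 in the same pair of classes. Igfbp6 in mural cells, with fewer than 3 UMIs in both libraries, is not in that range. For Igfbp7 the osteoblast and tenocyte values were -0.18 and 0.92 without globin-positive cells. The tenocyte gate held 23 mutant cells, and 3 of them held 46.2% to 76.0% of the UMIs of Igf2, Igfbp5, Igfbp6 and Igfbp7.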

How the results depend on the processing

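No paired analysis was possible because each genotype has 1 library. Igf1 in Sox9+Col2a1+ cells (-2.85) stayed lower by over 2-fold under 13 alternatives, from -4.04 to -2.19. The values that moved were -2.53 with cells weighted equally, -4.04 with at least 2 UMIs of both gate genes, -3.34 with Col2a1 and Acan as the gate, -3.15 without cells of other gates, -3.22 without the 3 richest cells and -2.19 with cells thinned to one depth. The difference in Igf1-positive shares kept its direction under 6 alternatives, from -23.1 to -14.5 points. The count of members lower by 2-fold or more was 2, and 1 without the top 5% of cells by counts or with thinning. The count of members higher was 1 (Igfbp3, when genes under 10 CPM are kept) and 0 with a pseudocount of 10 CPM, at least 2 UMIs of both gate genes, Col2a1 and Acan as the gate, without cells of other gates, with thinning or with the low-value filter. Igfbp3 turned to -0.20 with at least 2 UMIs of both genes and -0.71 with Col2a1 and Acan, from few UMIs. Igf2, Igf1r, Igf2r, Ghr and Igfbp5 kept their sign under all 13, Igfbp7 under 12, Igfbp6 under 11 and Igfbp4 under 8 (-0.75 to 0.60). Igfbp5 ranged from -1.99 to -0.79. In osteoblasts Igf1 was at -0.76 with cells weighted equally, under 2-fold, at -2.89 without the 3 richest cells and, added after the data were seen, -2.98 within the study's cell limits. It was at -1.55 in marrow stromal cells and -3.40 in mural cells with at least 3 panel markers, at 2.30 without globin-positive cells and 1.89 with the panel in synovial lining cells, and at -0.65 in tenocytes without the 3 richest cells. The cause of these moves was not tested. With under 20 cells left, tenocytes within the cell limits and mural cells within them or without globin-positive cells were not run. Classes with few mutant cells (23 tenocytes, 35 mural cells) limit what can be seen, and no spread between mice is known.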
